A study of Caenorhabditis elegans with 36 samples.

Results

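miR-2 and miR-797 were followed through the last larval stage and into young adulthood of Caenorhabditis elegans, with both strands of each hairpin read from every library. Members were all miRNAs whose name without the strand suffix was miR-2 or miR-797, which gave 4 of the 437 miRNAs in the tables: miR-2-3p, miR-2-5p, miR-797-5p and miR-797-3p. Small RNA libraries had been made from whole animals of strain HW3527, which carries ebax-1(tm2321), and of the wild-type strain N2 (WT). Synchronized first-stage larvae of both strains were plated with no further treatment at 25 °C, and 1 library per strain was collected at every hour from 25 to 42 h, 18 libraries per strain and 36 in all. No hour was sampled more than once in a strain, so the hours of a strain stood in for replicates, and p-values measured the scatter between these libraries, which may be partly technical.

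A miRNA gene is transcribed as a hairpin precursor, from which Dicer cuts a duplex, and 1 strand, the guide, stays bound to Argonaute and directs it to mRNAs that pair with its seed, while the other strand, the passenger, is usually lost. EBAX-1 is the worm relative of ZSWIM8, the substrate receptor of a cullin-RING ubiquitin ligase that is known for target-directed miRNA degradation. In mammals and flies, extensive pairing to a target leads in this way to loss of Argonaute and of its bound miRNA. For C. elegans the study states that no such target had been defined and that the pairing rules may differ. Members of the miR-2 family are known from Drosophila as repressors of pro-apoptotic genes, and miR-43 and miR-250 are usually placed in the same seed group in C. elegans. Mature sequences were not analysed here.

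In the annotation of assembly WBcel235, mir-2 lay on chromosome I within an intron of ppfr-1, a protein phosphatase subunit gene, on the same strand. Its only annotated miRNA neighbour within 10 kb was mir-71, in the same host gene and 7061 bases away. The mir-797 hairpin lay on chromosome X outside any annotated host gene, on the same strand as mir-247 and 40 bases from it. Neither hairpin overlapped an annotated exon of another gene, and the other hairpins of the seed group lay elsewhere, mir-43 on chromosome II and mir-250 on chromosome V.

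Libraries held 3720038 to 8060155 miRNA counts in ebax-1(tm2321) animals and 2832088 to 5579822 in WT animals. Levels are given as CPM, counts relative to library size scaled by trimmed mean of M-values (TMM) factors over all 36 libraries. The mutant had been aligned to WT by subtracting 3 h from its hour, the shift the study used for its slower development, which left 15 aligned hours, mutant 28 to 42 h against WT 25 to 39 h. Strain differences are log2 differences, ebax-1(tm2321) minus WT, with the standard error (SE) from edgeR's quasi-likelihood test over the 241 miRNAs kept by a filter on low counts, and a difference was called at a Benjamini-Hochberg adjusted p under 0.01. All 4 strands were kept. At the filter's 2.15 CPM, miR-797-5p passed in 15 mutant and 13 WT libraries of 15 each, and the other strands passed in every library.

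The 4 strands covered a wide range of levels, with miR-2-3p the most abundant. In ebax-1(tm2321) libraries miR-2-3p had a lowest level of 460.0 CPM, a median of 563 and a highest of 1000.0, against 417, 590.0 and 1280 in WT libraries (n = 18 each). miR-2-5p, the other strand of the hairpin, had 105, 150.0 and 253 in ebax-1(tm2321) libraries, against 105, 143 and 290.0 in WT libraries. The 3p strand was above the 5p strand in 18 of 18 libraries of each strain, by a median of 3.86 times in the mutant and 3.97 times in WT. miR-797 was far rarer and its strands were closer to each other. miR-797-3p had a lowest level of 5.2, a median of 12.8 and a highest of 33.5 CPM in ebax-1(tm2321) libraries, against 3.71, 10.3 and 30.1 in WT libraries. miR-797-5p had 7.62, 13.9 and 19.6 in ebax-1(tm2321) libraries, against 1.53, 3.71 and 14.4 in WT libraries. Its raw counts were 25 to 116 in a mutant library and 5 to 93 in a WT library, so counting error was largest for this strand in late WT libraries. The ranges of the strains overlapped for all 4 strands when hours were pooled.

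**Figure D1:**
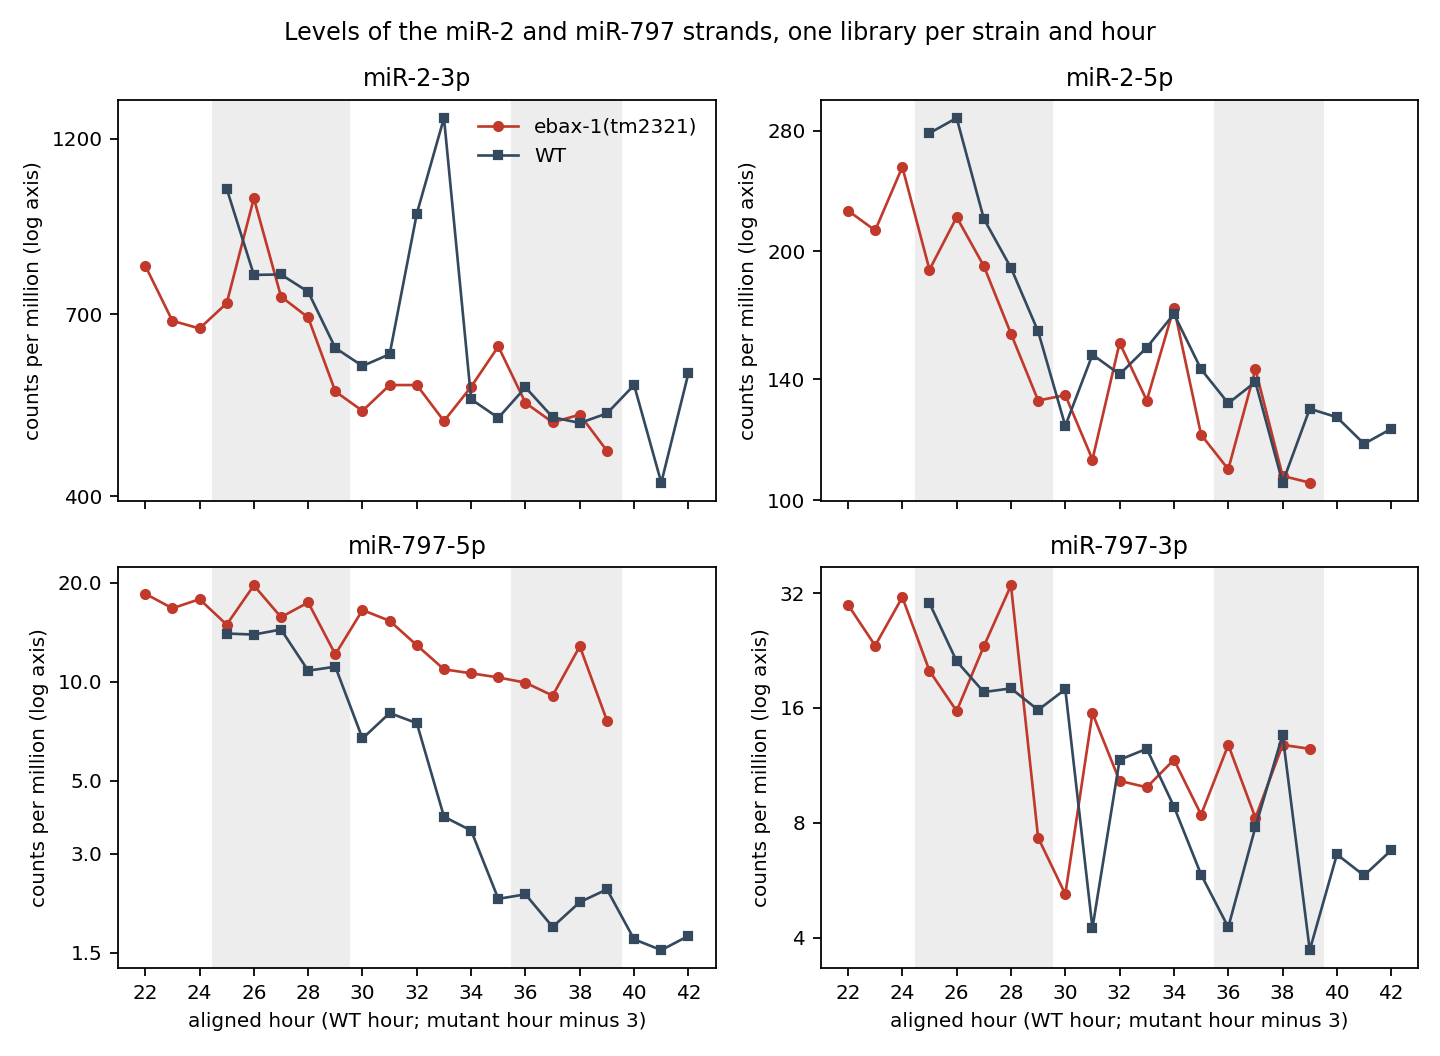
Level of each strand (CPM, log axis) in each library against the aligned hour, ebax-1(tm2321) in red circles and WT in dark squares. Shading marks the early and late windows of the 3 compared, aligned hours 25 to 29 and 36 to 39. The miR-797-5p lines part from aligned hour 30 on, where every mutant library is above 7 CPM. The miR-2-3p lines are furthest apart at WT 32 and 33 h. Those of miR-2-5p are furthest apart at aligned hour 25, with the mutant at 190 and WT at 278 CPM.

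miR-797-5p was the strand that differed most between the strains. Averaged over the aligned hours it was at 13 ± 3.41 CPM in ebax-1(tm2321) libraries and 6.98 ± 4.81 in WT libraries (SD, n = 15 each), a log2 difference of 0.97 ± 0.16 (SE) or 1.96-fold, with an adjusted p of 7.09e-06 from edgeR. With TMM scaling it was higher in the mutant at 15 of 15 aligned hours. As a share of the library totals, before TMM scaling, it was lower in the mutant at aligned hours 25, 27 and 29. The mutant libraries held 14.9, 14.4 and 11.1 CPM there, against 16.6, 16.7 and 13.1 in the WT libraries. At the other aligned hours it was higher in the mutant on this scale too. Of all miRNAs tested, 50.6% were called in the mean comparison with TMM scaling, 24.1% as higher and 26.6% as lower. A call alone thus did not set miR-797-5p apart. Its rank was 17 of 241 from the highest. miR-2-5p was the only other member called, as lower, at −0.24 ± 0.07 and an adjusted p of 0.00421, with the mutant higher at 5 of 15 hours. miR-2-3p had −0.27 ± 0.09 (adjusted p = 0.0162) and miR-797-3p 0.12 ± 0.20 (adjusted p = 0.647), neither past the threshold. With the strain free to act differently over time, the joint edgeR test of the 7 strain coefficients gave an adjusted p of 3.07e-08 for miR-797-5p, 0.0242 for miR-2-5p, 0.055 for miR-2-3p and 0.742 for miR-797-3p, where 45.2% of miRNAs were called.

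The size of the miR-797-5p difference depended on the hour. The test of strain by time passed for miR-797-5p, with an adjusted p of 0.000255 from edgeR, and it passed for 7.47% of the miRNAs tested. The other members had adjusted p-values of 0.374 for miR-2-3p, 0.374 for miR-2-5p and 0.796 for miR-797-3p. The aligned hours were then read in 3 windows of 5, 6 and 4 h, with the aligned hour as a factor. The late gap of miR-797-5p was known when these windows were set.

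In the early window, mutant 28 to 32 h against WT 25 to 29 h, miR-797-5p stood at 14.9, 19.6, 15.7, 17.4 and 12.1 CPM in the mutant libraries, against 14, 13.9, 14.4, 10.8 and 11.1 in the WT libraries. The groups overlapped, and the log2 difference of 0.24 ± 0.15 was not called (adjusted p = 0.219, edgeR). In this window 28.6% of miRNAs were called. The early difference of miR-797-5p was 0.0 with library totals (adjusted p = 0.989, edgeR) and 0.0 in limma on the deposited log2 table (adjusted p = 0.984). In the middle window, mutant 33 to 38 h against WT 30 to 35 h, the mutant libraries held 16.5, 15.3, 12.9, 10.9, 10.6 and 10.3, against 6.72, 8.03, 7.48, 3.89, 3.53 and 2.19 in the WT libraries. The lowest mutant library was above the highest WT library, as for 10.4% of all miRNAs. The difference was 1.24 ± 0.16 on the log2 scale, 2.37-fold, with an adjusted p of 4.91e-06 where 27.4% of miRNAs were called, 13.3% as higher.

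The late window, mutant 39 to 42 h against WT 36 to 39 h, held the widest gap. miR-797-5p had 9.93, 9.07, 12.8 and 7.62 CPM in the mutant libraries, against 2.26, 1.8, 2.14 and 2.34 in the WT libraries. Again no mutant library reached down to a WT library, a separation in this direction that 17.4% of miRNAs showed here. The log2 difference was 2.15 ± 0.24, or 4.44-fold, with an adjusted p of 1.68e-06 from edgeR, and it ranked 8 of 241, where 19.5% were called, 10.8% as higher. The mutant value rested on 156 counts summed over the 4 libraries and the WT value on 35. As a share of the library totals, before TMM scaling, this was 8.73 CPM in the mutant with a 95% exact Poisson interval of 7.41 to 10.2, and 2.06 in WT with an interval of 1.44 to 2.87, intervals that cover counting error only.

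The growth of the gap was tested as a difference of differences. From the early to the late window the strain difference of miR-797-5p grew by 1.91 ± 0.29 on the log2 scale, with an adjusted p of 0.000242 from edgeR. A change of the strain difference between these windows was called for 2.07% of miRNAs, 5 of 241. The steps between neighbouring windows were 1.01 ± 0.22 from the early to the middle window (adjusted p = 0.02) and 0.91 ± 0.30 from the middle to the late window (adjusted p = 0.167). Neither step alone passed the threshold, with edgeR calling 0% and 0.415% of the 241 miRNAs. For the first of these steps 38 miRNAs had an unadjusted p under 0.05, DESeq2 called 4 and limma 0, and miR-797-5p had an unadjusted p of 0.000249.

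Each strain was also compared with itself, with 40 to 42 h set against 25 to 27 h in 3 libraries each. The fit held all 18 libraries of the strain in bins of 3 neighbouring hours. Its errors and p-values therefore drew on the scatter within every bin, also those between the early and the late one. In ebax-1(tm2321) animals miR-797-5p was at 9.83 ± 2.68 CPM late and 17.7 ± 0.927 early (SD, n = 3 each), a log2 change of −0.83 ± 0.20 with an adjusted p of 0.00217 from edgeR. In the mutant, 26.2% of the 244 miRNAs kept by the filter over all 36 libraries were called as lower late. In WT animals it was at 1.63 ± 0.0839 late and 14.1 ± 0.276 early, a log2 change of −3.11 ± 0.31 with an adjusted p of 9.8e-07, where 29.1% of miRNAs were called as lower. The early WT level was 8.66 times the late one. The change ranked 40 of 244 from the lowest in the mutant and 3 of 244 in WT. The lowest mutant level at any hour, 7.62 CPM at 42 h, was below 6 WT libraries and above 12. WT libraries lay above that level up to 31 h except at 30 h and below it from 32 h on. The mutant call did not hold without the library of 40 h (−0.77, adjusted p = 0.0113) or that of 42 h (−0.68, adjusted p = 0.0147), while the WT call held without any one library.

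miR-797-3p, the other strand of the hairpin, was not called in any window. In the late window it was at 12.8, 8.24, 12.8 and 12.5 CPM in the mutant libraries, against 4.26, 7.8, 13.6 and 3.71 in the WT libraries. WT 38 h, at 13.6, was above every mutant library, and the log2 difference of 0.75 ± 0.44 was not called (adjusted p = 0.204, edgeR). The early and middle windows gave −0.20 ± 0.32 and 0.00 ± 0.34. From the early to the late window the strain difference of miR-797-3p grew by 0.95 ± 0.54, which was not called (adjusted p = 0.469, edgeR). Even differences of the 3p strand larger than their errors, such as that of the late window, could go uncalled. In the mutant the 3p strand was at 11.2 ± 2.55 CPM in 40 to 42 h and 28.1 ± 4.18 in 25 to 27 h, a log2 change of −1.32 ± 0.47 that missed the threshold (adjusted p = 0.0214). It passed without the mutant library of 31 h (−1.32, adjusted p = 0.00016) or that of 33 h (−1.32, adjusted p = 0.00764). In WT it was at 6.4 ± 0.509 late and 23.0 ± 6.44 early, a log2 change of −1.83 ± 0.39 with an adjusted p of 0.000792 from edgeR. Single libraries jumped. Mutant 32 and 33 h held 38 and 24 counts after 185 at 31 h, and WT 31 h held 19 counts (4.24 CPM) between 93 at 30 h and 53 at 32 h.

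The strands of a hairpin were also compared with each other within each library. The log2 ratio of 5p over 3p for miR-797, taken on TMM-scaled counts plus 8, had a lowest value of −0.88, a median of −0.07 and a highest of 1.39 in ebax-1(tm2321) libraries, against −1.97, −1.0 and 0.70 in WT libraries (n = 18 each). The 5p strand was above the 3p strand in 7 mutant libraries and in 1 WT library. Across the aligned hours the ratio was higher in the mutant by 0.80 ± 0.20 (SE), with an adjusted p of 0.00174 from limma over 86 hairpins with both strands measured, of which 36% were called. Within windows the difference was 0.41 ± 0.36, 1.04 ± 0.33 and 0.90 ± 0.40, with adjusted p-values of 0.391, 0.0202 and 0.11, none past the threshold, where 16.3%, 24.4% and 17.4% of hairpins were called. The middle window passed without WT 31 h or without mutant 34 h (1.40 each, adjusted p = 0.0017 and 0.00171). From the early to the late window the strain difference of the ratio changed by 0.49 ± 0.54, which was not called (adjusted p = 0.783, limma). A growth of the gap in the 5p strand alone was thus not shown. Adding a constant to counts pulls ratios of rare strands towards 0, and the mean difference was 1.0 with 1 added (adjusted p = 0.0013) and 0.50 with 32 added (adjusted p = 0.0035). For miR-2 the ratio was −2.38 at the lowest, −1.94 at the median and −1.40 at the highest in ebax-1(tm2321) libraries, against −3.05, −1.98 and −1.44 in WT libraries. Its strain difference was 0.01 ± 0.12 (adjusted p = 0.939).

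**Figure D2:**
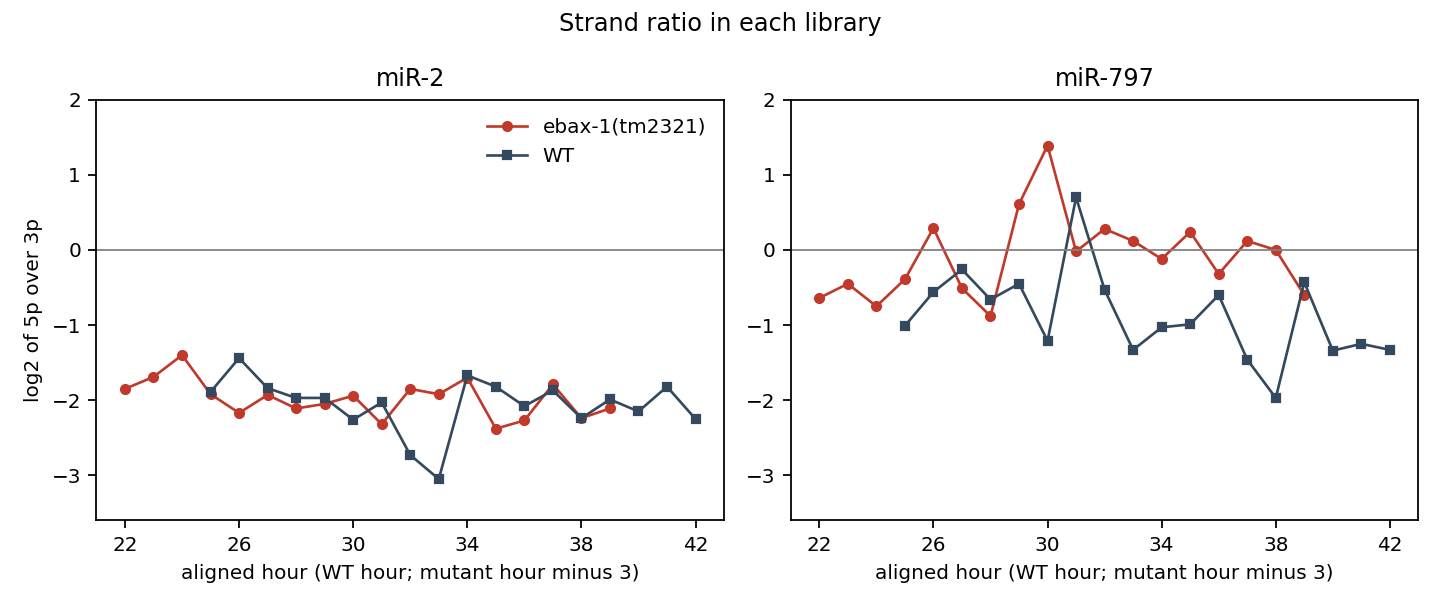
log2 ratio of the 5p over the 3p strand (scaled counts plus 8) in each library against the aligned hour, for miR-2 on the left and miR-797 on the right, ebax-1(tm2321) in red circles and WT in dark squares. The horizontal line marks equal strands. The miR-2 points lie between −3.05 and −1.40 in both strains, with the lowest at WT 33 h, while the miR-797 points of the mutant have a median of −0.07 and those of WT a median of −1.0.

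miR-247-3p, read from the hairpin next to mir-797, followed miR-797-5p closely. Its Pearson r with miR-797-5p was 0.80 over the 18 mutant libraries and 0.98 over the 18 WT libraries, the highest in WT of all miRNAs kept. With miR-797-3p its r was 0.59 in mutant and 0.71 in WT libraries. These are descriptions over hours of one course, whose libraries share depth, scaling and developmental time. In the late window miR-247-3p was at 72.6, 79.1, 74.4 and 57.9 CPM in the mutant libraries, against 15.5, 8.1, 7.22 and 10.3 in the WT libraries. Its strain difference was −0.24 ± 0.21, 1.28 ± 0.21 and 2.77 ± 0.28 in the 3 windows, the first not called (adjusted p = 0.371) and the others called (6.92e-05 and 6.1e-07, edgeR). Late minus early, it changed by −0.71 ± 0.16 in the mutant and by −4.38 ± 0.32 in WT. The other strand, miR-247-5p, had at most 6 counts in a mutant library and 4 in a WT library and was not kept, so no strand ratio could be had.

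**Figure D3:**
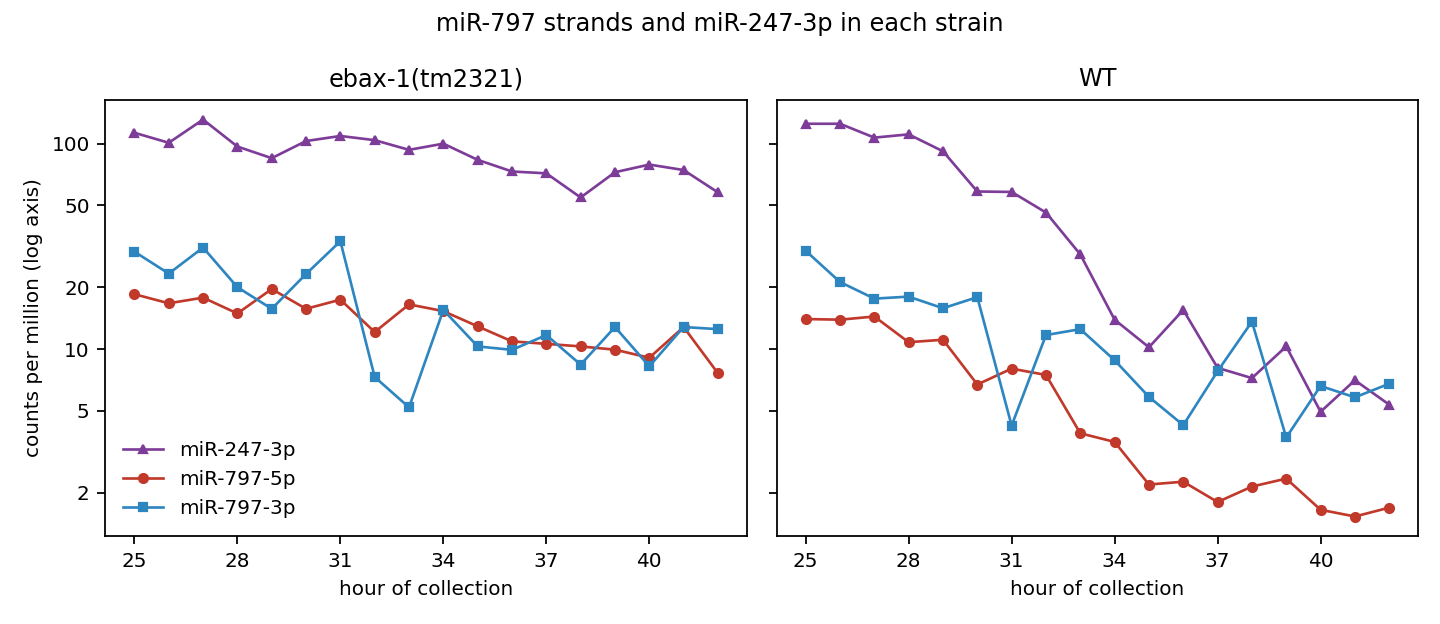
Levels of miR-247-3p (purple triangles), miR-797-5p (red circles) and miR-797-3p (blue squares) in CPM on a log axis against the hour of collection, ebax-1(tm2321) on the left and WT on the right. Between 25 to 27 h and 40 to 42 h, miR-247-3p and miR-797-5p go down by 1.63 and 1.77 times in the mutant, and by 20.8 and 8.66 times in WT.

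miR-2-3p was not called in any window with TMM scaling, but in the middle window it was called with library totals (−0.62, adjusted p = 0.00453) and in limma on the deposited log2 table (−0.63, adjusted p = 0.00359). In the early window it was at 724, 1000.0, 739, 693 and 552 CPM in the mutant libraries, against 1030.0, 790.0, 791, 750.0 and 631 in the WT libraries, which overlapped (−0.19 ± 0.16, adjusted p = 0.371, edgeR). In the middle window the mutant libraries held 520.0, 563, 563, 504, 560.0 and 634, against 597, 619, 954, 1280, 539 and 509 in the WT libraries. WT 32 and 33 h stood above the rest there. They were 0.93 higher on the log2 scale than the mean of WT 31 and 34 h, a rise over 0.5 that 9.43% of 244 miRNAs showed at these hours, among them miR-797-3p at 0.87, while miR-2-5p was at −0.11 and miR-797-5p at 0.01. The intestinal miR-60-3p was at 314 and 369 CPM in these libraries, with 178 and 239 at 31 and 34 h. At WT 39, 40 and 42 h miR-60-3p was at 317, 322 and 331 CPM, while miR-2-3p was at 516, 563 and 584. The part of intestinal content in the miR-2-3p values was not tested. The middle window's difference of −0.41 ± 0.15 (adjusted p = 0.0376) became −0.11 (adjusted p = 0.402) without WT 32 and 33 h. The mean difference became −0.17 with an adjusted p of 0.0039. In the late window the mutant libraries held 533, 502, 514 and 460.0, against 559, 510.0, 501 and 516 in the WT libraries, and the difference was −0.07 ± 0.18 (adjusted p = 0.818).

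miR-2-5p was called as lower in the early window with TMM scaling, at −0.40 ± 0.11 with an adjusted p of 0.00773 from edgeR, where 13.3% of miRNAs were called as lower. The mutant libraries held 190.0, 220.0, 192, 159 and 132 CPM there, against 278, 290.0, 219, 191 and 160.0 in the WT libraries. The mutant was lower at each of the 5 hours, though the ranges overlapped. The middle and late windows gave −0.17 ± 0.10 and −0.13 ± 0.13, neither called, but the middle window was called with library totals (−0.39, adjusted p = 0.00131) and in limma on the deposited log2 table (−0.39, adjusted p = 0.00127). The change from the early to the late window, 0.27 ± 0.17, was not called (adjusted p = 0.523). The calls of miR-2-5p depended on the alignment: with 2 h subtracted instead of 3, the mean difference was −0.09 (adjusted p = 0.218) and that of the early window −0.15 (adjusted p = 0.354), and with no shift the mean difference was 0.01. They also depended on single libraries. Of the 30 fits that left 1 library out, 22 lost the mean call, with values from −0.24 to −0.15, and 14 lost the early call, with values from −0.41 to −0.28.

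Both miR-2 strands declined with time in each strain. miR-2-3p was at 492 ± 28.4 CPM late and 723 ± 78.5 early in ebax-1(tm2321) animals (SD, n = 3 each), a log2 change of −0.56 ± 0.15 with an adjusted p of 0.00329 from edgeR. In WT animals it was at 521 ± 90.5 late and 871 ± 140.0 early, −0.75 ± 0.21 with an adjusted p of 0.00494. miR-2-5p changed by −0.95 ± 0.18 in the mutant (adjusted p = 0.000211) and by −1.13 ± 0.18 in WT (adjusted p = 5.23e-05). The miR-2-3p calls were close to the threshold. The mutant call did not hold without the library of 25 h or that of 42 h (−0.46 and −0.51), and the WT call did not hold without that of 25, 29, 32 or 41 h (−0.62 to −0.66). In 25 to 27 h, 28 to 30 h and 31 to 33 h, miR-2-5p was at 230.0 ± 21.3, 201 ± 17 and 142 ± 14.9 CPM in the mutant, against 262 ± 37.8, 158 ± 33.7 and 148 ± 5.79 in WT. The widest step between neighbouring bins came between the second and the third of these in the mutant, and between the first and the second in WT.

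mir-71, which shares the host gene ppfr-1 with mir-2, took another course. miR-71-5p, known for its part in lifespan and stress resistance, was higher in the mutant by 1.21 ± 0.14 on average (adjusted p = 2.32e-08, edgeR) and miR-71-3p lower by a log2 difference of −0.55 ± 0.09 (adjusted p = 2.92e-06). Late minus early, miR-71-5p changed by 0.61 ± 0.14 in the mutant and by 1.72 ± 0.42 in WT, where both miR-2 strands declined. Over the 18 libraries of a strain, the r of miR-2-3p with miR-71-5p was −0.13 in the mutant and −0.66 in WT.

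In the miR-2 seed group the strains differed by amounts of their own. miR-43-3p was at 222 ± 46.5 CPM in ebax-1(tm2321) libraries and 42.9 ± 24.7 in WT libraries (SD, n = 15 each), a log2 difference of 2.47 ± 0.13 with an adjusted p of 2.26e-15 from edgeR, and was higher at 15 of 15 hours. Its difference was already 1.81 ± 0.14 in the early window and reached 3.02 ± 0.17 in the late window, a growth of 1.22 ± 0.21 (adjusted p = 0.00117). miR-250-3p, the most abundant of the group, was at 3480 ± 467 in the mutant and 2740 ± 352 in WT, a difference of 0.30 ± 0.06 (adjusted p = 9.44e-05) that was 0.10 (adjusted p = 0.0858) with library totals as the scale. The other strands had 0.34 ± 0.11 for miR-43-5p (adjusted p = 0.0092), which was 0.13 (adjusted p = 0.273) with library totals, and 0.02 ± 0.06 for miR-250-5p (adjusted p = 0.779). With TMM scaling miR-2-3p, at −0.27, was the only one of these 3p strands not called. With library totals miR-2-3p was called, at −0.46 (adjusted p = 0.000379, edgeR), and miR-250-3p was not.

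**Figure D4:**
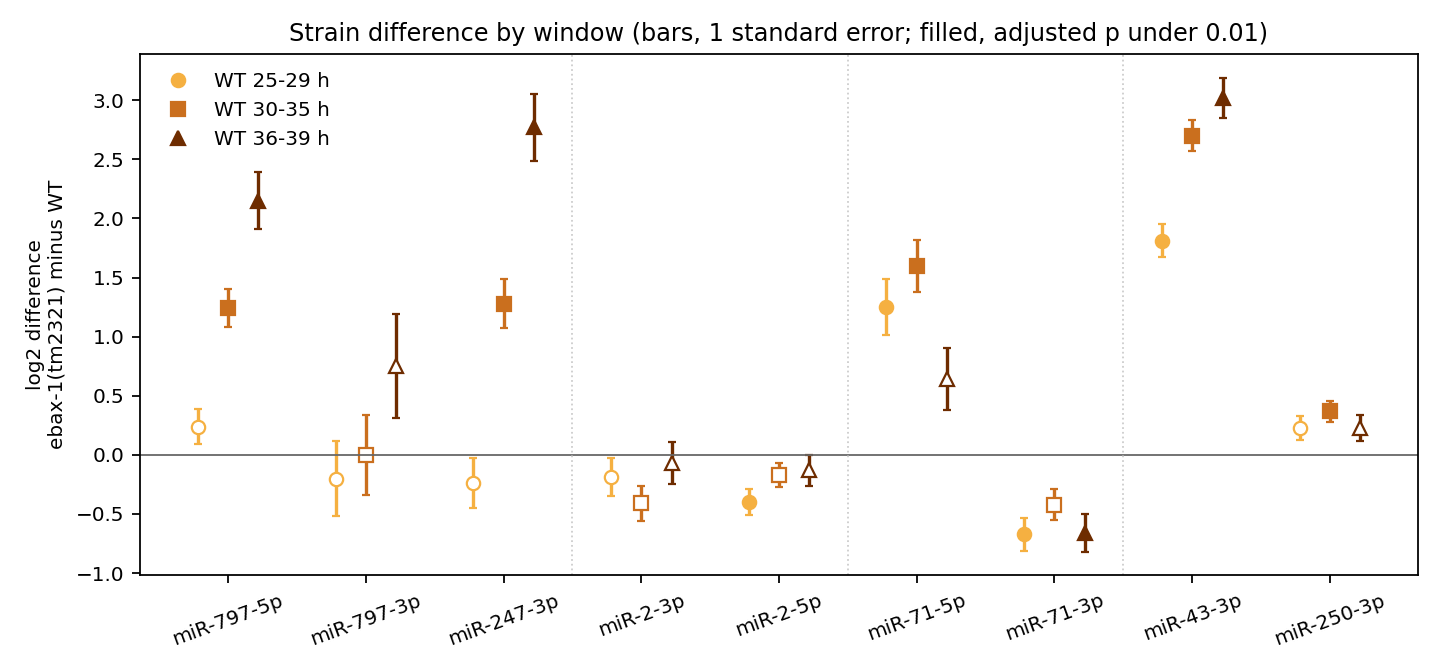
log2 difference, ebax-1(tm2321) minus WT, of each member with its genome neighbours and seed group in the 3 aligned windows. Bars are 1 standard error and filled symbols have an adjusted p under 0.01 from edgeR. miR-797-5p steps up through 0.24, 1.24 and 2.15, with miR-247-3p at −0.24, 1.28 and 2.77, while miR-2-3p and miR-2-5p lie between −0.41 and −0.07.

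A rhythm with a period of 7 h, close to the length of a larval stage, was fitted over 11 libraries per strain, mutant 28 to 38 h and WT 25 to 35 h. No member passed in either strain at this period, and miR-2-5p in WT passed at a period of 8 h (adjusted p = 0.00211). edgeR called 0% of 244 miRNAs in the mutant, where 37 had an unadjusted p under 0.05 and limma called 0, and 9.43% in WT. The strand nearest to the threshold was miR-2-5p in WT, with an amplitude of 0.34 on the log2 scale and an adjusted p of 0.0242 (unadjusted p = 0.00525). miR-2-5p in the mutant had an amplitude of 0.27 and an unadjusted p of 0.028. For miR-797-5p the amplitude was 0.07 in both strains.

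The miRNAs whose WT course was most like a member's differed from strand to strand. They were ranked by Pearson r over the 18 WT libraries. After miR-247-3p, those nearest to miR-797-5p were miR-788-5p (mutant 0.41, WT 0.96), miR-44-3p (0.67, 0.92), miR-43-3p (0.83, 0.92) and miR-45-3p (0.67, 0.92). For miR-797-3p they were miR-243-5p, miR-249-3p, miR-228-5p, miR-4810a and miR-86-3p, at 0.34 to 0.72 in the mutant and 0.77 to 0.81 in WT. For miR-2-3p they were miR-1-5p (mutant 0.17, WT 0.86), miR-79-3p (0.48, 0.85), miR-1830-5p (0.23, 0.83), miR-53-5p (0.89, 0.79) and miR-792-3p (0.34, 0.76). For miR-2-5p they were miR-231-3p, miR-232-3p, miR-62, miR-795-3p and miR-74-3p, at 0.70 to 0.86 in the mutant and 0.90 to 0.94 in WT. Among the members, miR-2-3p and miR-2-5p had an r of 0.78 in the mutant and 0.60 in WT, and miR-797-5p and miR-797-3p had 0.57 in the mutant and 0.74 in WT.

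Whole animals hold all cell types, and fewer cells of a type and less miRNA per cell cannot be told apart. The muscle marker miR-1-3p had a strain difference of 0.00 ± 0.04, and the neuronal lsy-6-3p and intestinal miR-60-3p had −0.76 ± 0.13 and −0.48 ± 0.09, both called by edgeR, while neuronal miR-124-3p had 0.28 ± 0.09 (adjusted p = 0.0121). Of the embryo and germline miRNAs of the miR-35 family, the list held the 3p strands of miR-35 to miR-41 and not that of miR-42. The 6 of them that passed the filter, all but miR-41-3p, were higher in the mutant, with none at 0. Their summed level was 13600 to 17700 CPM in the mutant and 1750 to 3090 in WT in the early window, 10700 to 12900 and 998 to 3260 in the middle window, and 11900 to 27900 and 1610 to 11900 in the late window. In WT it was highest at 40 to 42 h, 19200 to 34900, when miR-797-5p was at its lowest, and the part of cell makeup in the miR-797-5p difference was not tested. The study reported that miR-35 family levels rise in larvae that lack EBAX-1. Between the strains, a change of these miRNAs themselves and a change in embryo or germline content therefore cannot be told apart. The lines differed by strain throughout, so ebax-1(tm2321) and any other difference of strain HW3527 from N2 cannot be told apart.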

How the data were processed

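The authors trimmed adapters and aligned small RNA reads (CleanTag libraries, single-end) to genome build ce10 with Bowtie through QuasR, allowing up to 100 hits per read. They deposited counts of reads starting within 3 bases of the 5′ end of a miRBase version 22 miRNA on its strand, so reads shared by near-identical miRNAs could be split. The QuasR and Bowtie versions were not given in the sources used here. Deposited too was a log2 table of each count divided by its library total, times the mean total, plus 8, which was recomputed from the counts to within 5.0e-04. Members, windows and lists were chosen with earlier results of these data known. Named beside the members were the miR-2 seed group, genome neighbours from WBcel235, and for each member the 5 miRNAs most correlated with it in WT on log2(CPM + 1).

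Counts were fitted in edgeR 4.0.16 (R 4.3.3): filterByExpr by strain (minimum count 10), TMM, and a quasi-likelihood test on strain plus a 6-component cubic spline of the aligned hour, over 30 libraries, with a threshold of 0.01. The joint test added the products of strain and spline, the terms the study tested together in limma over 11 hours per strain. Windows used the aligned hour as a factor, so hours were paired by alignment, not by shared cultures. Strand ratios were tested in limma 3.58.1. The check on simulated counts covered the strain mean test and the late window test. Alternatives were library totals, DESeq2 1.42.0 and its size factors, no filter, limma on the deposited log2 table, other shifts, splines and periods, and each library left out.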

Additional observations from a re-analysis of the deposited data

Results flagged for a closer look

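The strain difference of miR-797-5p changed between the early and late windows by 1.91 on the log2 scale, by edgeR's test of the change itself, and its strain-by-time test had an adjusted p of 0.000255. The same tests passed for miR-247-3p (3.00, and an adjusted p of 2.59e-08) and for miR-43-3p (1.22, and 0.000183). For miR-71-5p the strain-by-time test alone passed, at 4.89e-05.

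In the 24 sets of 4 to 6 libraries formed by strand, strain and window, 2 held a library far from the others, where chance gives about 1 in 20, and both were the mutant library of 40 h. It held miR-2-5p at 144 CPM, with the other 3 libraries of the late window at 105 to 109, and miR-797-3p at 8.24, with the others at 12.5 to 12.8. This miR-797-3p value rested on 30 counts.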

How the results depend on the processing

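The mean difference of miR-797-5p and its differences in the middle and late windows kept their call under every alternative run, with ranges of 0.73 to 1.37, 0.88 to 1.46 and 1.44 to 2.36. The growth of its gap from the early to the late window also kept its call, from 1.45 to 2.12, and the first step of that growth passed the threshold without a filter (1.14), in DESeq2 (1.04) and without WT 28 h, WT 39 h or mutant 41 h (0.91 to 1.17 over all libraries left out). The mean call of miR-2-5p was lost without a filter (−0.07) and with a 2 h shift (−0.09), turned to 0.01 with no shift, and was kept in only 8 of 30 fits without 1 library (−0.24 to −0.15), namely when the library omitted was WT at 30, 33 or 38 h, or mutant at 35, 37, 38, 40 or 42 h. The miR-2-3p mean passed the threshold with library totals (−0.46), in limma on the deposited table (−0.44), with a 4 h shift (−0.35) and, chosen after seeing the data, without WT 32 and 33 h (−0.17). Library totals and the deposited table put the median of all miRNAs at −0.23 and −0.22, against −0.03 with TMM, and no filter put it at 0.10. With those 2 scales the middle window of miR-2-3p (−0.62 and −0.63) and of miR-2-5p (−0.39 both) passed, as did the joint test of miR-2-3p (adjusted p = 0.00282 and 0.00412) and of miR-2-5p (0.000516 and 0.000503). The early call of miR-2-5p was lost without a filter (−0.32, adjusted p = 0.0507), with a 2 h shift (−0.15) and in 14 of 30 fits without 1 library. Late minus early, miR-797-3p in the mutant passed with library totals (−1.53) and in limma (−1.41), and without mutant 31 or 33 h, with a range over libraries left out of −1.44 to −1.15. miR-2-3p lost its mutant call without a filter (−0.49; −0.61 to −0.46 over libraries left out) and its WT call with DESeq2 size factors (−0.65; −0.82 to −0.62), and miR-797-5p in the mutant ranged from −1.02 to −0.68. The miR-797 strand ratio passed with a 2 h shift in the middle (1.12) and late (1.14) windows, and in the middle window without WT 31 h or mutant 34 h (0.73 to 1.40 over all libraries left out). Its mean difference was 0.50 with 32 added to counts. The rhythm of miR-2-5p in WT passed at a period of 8 h (adjusted p = 0.00211). The strain-by-time test called 18 miRNAs, and 33 in a DESeq2 likelihood ratio test, 42 with a 4 h shift and 77 with no shift. With the aligned hour as a replicate block, the mean differences were 0.98 for miR-797-5p, −0.24 for miR-2-3p and −0.24 for miR-2-5p, and no member's call changed. The cause of these changes was not tested. Late WT libraries held 5 to 12 counts of miR-797-5p each, which limits its values there.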
